A study of Mus musculus with 4 samples.

Results

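The immediate early transcription factor genes Fos, Fosb, Fosl1, Jun, Junb, Egr1, Egr2, Egr3, Ier2 and Ier3 were read in mouse cardiomyocytes on 4 Agilent 1-colour arrays. The 10 genes were fixed by symbol and found through the RefSeq accession that the scanner files give for each probe, 10 of the 20886 genes that could be named on the array. Each was read by 1 probe, printed at 10 spots for Fos and at 1 spot for each of the others. The cells had been grown from CGR8, a mouse embryonic stem cell line, in low-glucose medium (DMEM-LG) with 2% FBS. Of the 4 samples, 2 were transfected for 48 hours with a scrambled small interfering RNA (siScr) and 2 with one against Erbb4 (siErbB4), using Pepmute in both groups. The labels also give 2 incubation times, 6 and 24 hours, not tied to single samples, describe both siErbB4 samples as siScr in 1 field, and name ErbB5 in the source field of siErbB4 replicate 2. Groups were taken from the titles, which the transfection field matches. CGR8 is 1 line, and nothing in the labels says that replicates came from separate differentiations, so every p-value measures only the spread between these samples.

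Immediate early genes are transcribed within minutes of a stimulus without new protein synthesis, because the factors that switch them on, among them SRF with its ETS-family partners and CREB, are already present. Growth factor receptors of the ERBB family reach them through the RAS and ERK kinases, and mechanical stretch, neurohormones and stress induce them in heart muscle cells. Their mRNAs decay quickly, so a steady level after days reflects the state at harvest. FOS and JUN proteins pair through leucine zippers to form the AP-1 factor, while EGR proteins bind GC-rich sites with zinc fingers.

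Promoter sequence was listed in RefSeq (build GRCm38.p6) for 6 of the 10 genes, Fos, Fosb, Jun, Junb, Egr2 and Ier3, as windows of 250 bases before and 50 bases after each start. They are shown because the letters TGACG, the core of the CREB site, lie in the windows of Fos, Fosb, Junb and Egr2, beside 20.8% of all 32851 windows searched on both strands. Within these windows, an SRF-binding CArG box was found in Egr2 alone of the 6. A box lay in the windows of 4 of the 5 listed Egr2 starts, beside 1.63% of all windows. The windows at starts 67537869, 67537870 and 67537930 overlap and share the same box. Bases more than 250 before a start were not searched, so a box there would be missed. A match is a description of the letters, not of a bound site. Capitals mark TGACG on either strand and the CArG box, and each sequence reads 5′ to 3′ toward the start. The stretch of Fos lies on the + strand at chr12:85473750-85473889, that of Fosb on the - strand at chr7:19310046-19310185 and that of Junb on the - strand at chr8:84978749-84978888, each being the 140 bases before the start. The stretch of Egr2 holds 30 bases upstream of 1 of its starts, on the + strand at chr10:67537789-67537818. The CArG box and the TGACG letters do not overlap in it.
Fos: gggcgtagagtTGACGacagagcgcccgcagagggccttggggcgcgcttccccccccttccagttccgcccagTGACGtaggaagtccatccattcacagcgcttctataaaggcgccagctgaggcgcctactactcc
Fosb: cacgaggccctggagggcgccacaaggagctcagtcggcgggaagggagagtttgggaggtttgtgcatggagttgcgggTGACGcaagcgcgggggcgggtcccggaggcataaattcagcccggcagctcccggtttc
Junb: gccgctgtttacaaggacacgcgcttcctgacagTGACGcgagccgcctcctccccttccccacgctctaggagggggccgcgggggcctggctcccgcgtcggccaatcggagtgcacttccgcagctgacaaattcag
Egr2: tcctcagtCCATATATGGgcagcgaCGTCA
Fos holds TGACG at 2 places, from 129 and from 66 bases before the start, the nearer one upstream of a TATA box. Fosb holds it at 1 place, from 60 bases before the start, and Junb at 1, from 106 bases before. The windows of Jun and Ier3 held neither motif.

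All 4 arrays lay on 1 slide, the 75th percentile of their processed signal was between 878 and 989, and the scanner software called 64.8% to 68.5% of probes well above background. Processed signals are background-subtracted brightness, and comparisons used the log2 signal minus the array's 75th percentile, called the scaled log2 level here. The Erbb4 probe read 9.02 and 11.9 in siScr and 2.83 and 15.0 in siErbB4, and it was well above background only in siErbB4 replicate 2, so it does not check the knockdown. All 7 cardiomyocyte markers, among them Myh6 and Tnnt2, were well above background on all 4 arrays. The replicate 2 arrays differed from the replicate 1 arrays in markers of other cells, and those values stand beside the comparison they touch.

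Of the 10 genes, 8 were well above background on every array, Egr2 on 3 arrays and Egr3 on none. Flags come from the scanner software, whose lowest signal called well above background was 9.63 to 12.0 on the 4 arrays. Egr3, an EGR gene best known from muscle spindles and lymphocytes, had signals of 3.13 and 2.46 in siScr and 2.32 and 2.18 in siErbB4. Its raw spot brightness was 52.0 to 58.5 against a local background of 18.0 to 32.0. Egr3 was therefore not well above background in either group and gives no fold. The other 9 passed the filter, which kept a probe if both arrays of 1 or more groups had it well above background.

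**Figure D1:**
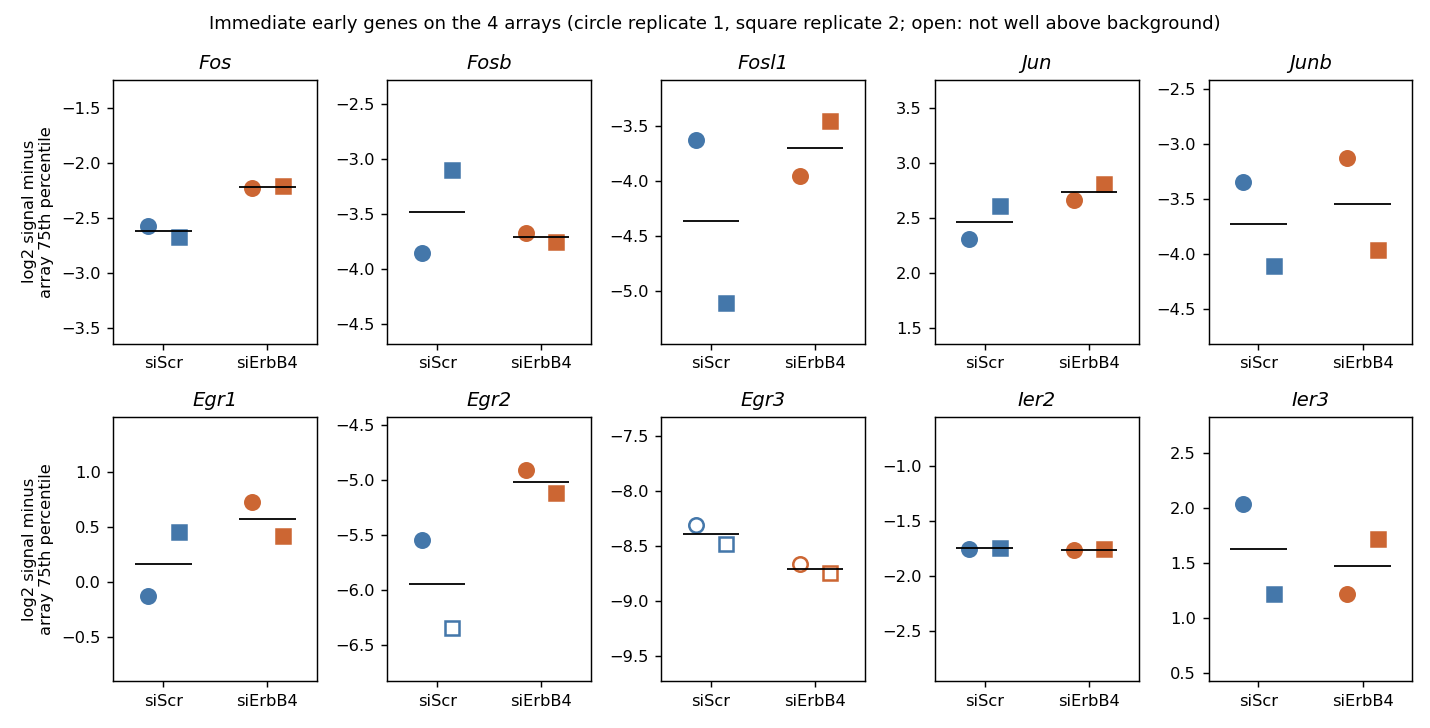
Scaled log2 level of each gene on the 4 arrays, with a bar at each group's mean; every vertical axis spans the same range, so distances compare between panels, and hollow symbols are arrays not well above background. Fos and Jun are separated between siScr (blue) and siErbB4 (orange), while the siScr arrays of Fosl1 lie 1.48 apart and the 4 arrays of Ier2 lie within 0.02.

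Between the groups, Fos and Jun had both siErbB4 arrays above both siScr arrays, and no gene of the set passed the test across all features. The log2 differences (siErbB4 minus siScr) were 0.40 for Fos and 0.28 for Jun, or 1.32-fold and 1.21-fold. Over the 8 genes well above background on every array, groups did not overlap at 2, beside 29% of all 20726 features, of which 13.1% had siErbB4 higher and 15.9% lower. The median of these 8 was 0.23, with 5 positive and 3 negative, beside -0.01 over all features, and it was 0.069 without siScr replicate 2, with 4 positive and 4 negative. Egr2 stands outside these counts, because it passed the filter only through siErbB4, the group in which it read higher. With limma's p-values adjusted by Benjamini and Hochberg's method and a threshold of 0.05, 0 of 20726 features (0%) were called. The unadjusted p was under 0.05 for 366 features (1.77%), and for 1 of the 8 genes, Fos. The adjusted p of all 9 genes was 1.00, and an exact two-sided permutation test of 2 arrays against 2 cannot go below 0.333.

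Fos encodes the partner that makes AP-1 a strong activator. Its mean processed signal over the spots kept was 166 and 138 in siScr and 201 and 202 in siErbB4. The scaled log2 levels were -2.57 and -2.67 in siScr and -2.23 and -2.21 in siErbB4, so the groups did not overlap. The difference was 0.40 (standard error, SE, 0.13; limma's 95% interval 0.04 to 0.76; n = 2 arrays a group).

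Being printed at 10 spots, Fos is the one gene of the set whose error within an array can be read. Outlier flags removed 2 spots of siErbB4 replicate 1, leaving 8 there and 10 on each other array. The SD between spots was 0.042 and 0.083 in siScr and 0.046 and 0.053 in siErbB4 on the scaled log2 scale, beside a median of 0.052 over 288 probes printed at 10 or more spots and well above background on all 4 arrays. The brightest siScr spot stood at -2.50 and the dimmest siErbB4 spot at -2.31, so no kept spot of one group reached the other. Of those 288 probes 9, or 3.12%, kept all spots of the groups apart, 5 of them (1.74%) with siErbB4 higher, and 18 (6.25%) had a difference at least as large as that of Fos. Spots of 1 array share its sample, so they measure the reading error and add no replicate.

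**Figure D2:**
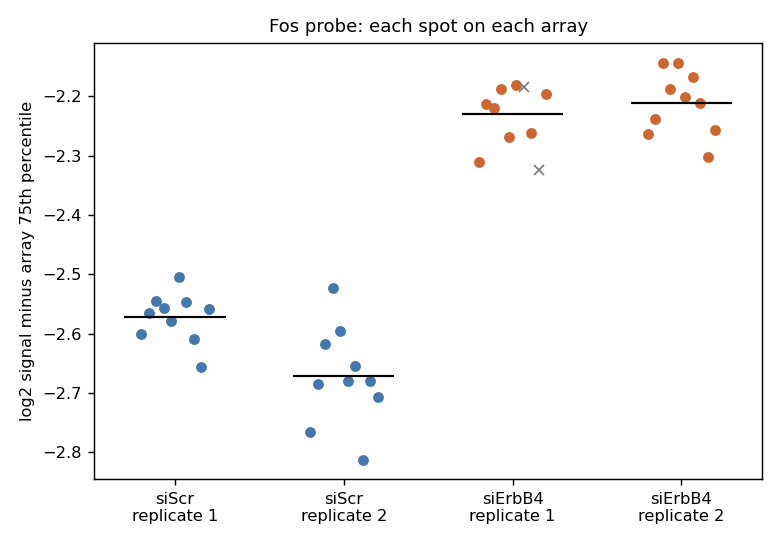
Scaled log2 level of each Fos spot on the 4 arrays; dots are kept spots, grey crosses are spots flagged as outliers and left out, and bars are array means. The kept siScr spots reach up to -2.50 and the kept siErbB4 spots down to -2.31.

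The other FOS genes overlapped between the groups. Fosb, which encodes a close relative of FOS, had processed signals of 68.5 and 102 in siScr and 74.3 and 69.6 in siErbB4. The siErbB4 arrays lay between the siScr arrays, and the difference was -0.23 (SE 0.29, 95% interval -1.05 to 0.58). Fosl1 encodes FRA-1, a FOS relative without the strong activation domain and itself an AP-1 target. It read 80.0 and 25.4 in siScr and 60.9 and 85.6 in siErbB4. siScr replicate 2 was the low array, and the difference of 0.67 (SE 0.56, 95% interval -0.89 to 2.22) became -0.08 without it.

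Among the JUN genes, Jun encodes the founding AP-1 partner and acts on its own promoter. Its processed signals were 4903 and 5365 in siScr and 5996 and 6569 in siErbB4. The scaled log2 levels were 2.31 and 2.61 against 2.67 and 2.81, which do not overlap, although siScr replicate 2 and siErbB4 replicate 1 were 0.06 apart. The difference was 0.28 (SE 0.17, 95% interval -0.20 to 0.75), and it was 0.13 without siScr replicate 1 and 0.43 without siScr replicate 2. Junb, which encodes a weaker activator that can restrain JUN, read 97.3 and 51.0 in siScr and 108 and 60.3 in siErbB4. Within each group the replicate 2 array was the low one, the groups overlapped, and the difference was 0.18 (SE 0.42, 95% interval -0.96 to 1.33).

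Egr1, the most widely induced EGR gene, read 902 and 1202 in siScr and 1561 and 1249.7 in siErbB4. On the scaled log2 scale siErbB4 replicate 2, at 0.41, lay just under siScr replicate 2, at 0.45, so the groups overlapped. The difference was 0.41 (95% interval -0.32 to 1.14), with an SE of 0.27, and it was 0.12 without siScr replicate 1 and 0.70 without siScr replicate 2. Egr2, known for its part in myelination and hindbrain patterning, read 21.2 and 10.8 in siScr and 31.4 and 27.0 in siErbB4. In siScr replicate 2 it was not well above background, so 1 of the 2 siScr arrays measured it and no fold is given. Its scaled log2 levels were -5.55 and -6.34 against -4.91 and -5.12. The Egr2 difference of 0.93 (SE 0.32, 95% interval 0.06 to 1.80) is that of a dim probe. It was 0.30 with normexp background correction, which shrinks the differences of dim probes, and 0.53 without siScr replicate 2. Egr2 passed the filter only through siErbB4, the group in which it read higher, so the interval is not read as a test.

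The IER genes, named for their immediate early response, gave no separation of the groups. Ier2, a nuclear regulator, read 294 and 263 in siScr and 278 and 279 in siErbB4. Its scaled log2 levels were -1.75 and -1.74 against -1.77 and -1.75, a range of 0.02 over the 4 arrays. The difference was -0.01 (SE 0.13, 95% interval -0.36 to 0.34). Ier3, a stress gene tied to cell survival and ERK signalling, read 4045 and 2043 in siScr and 2195 and 3086 in siErbB4. High and low arrays fell in both groups, and the difference was -0.16 (SE 0.36, 95% interval -1.15 to 0.83).

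**Figure D3:**
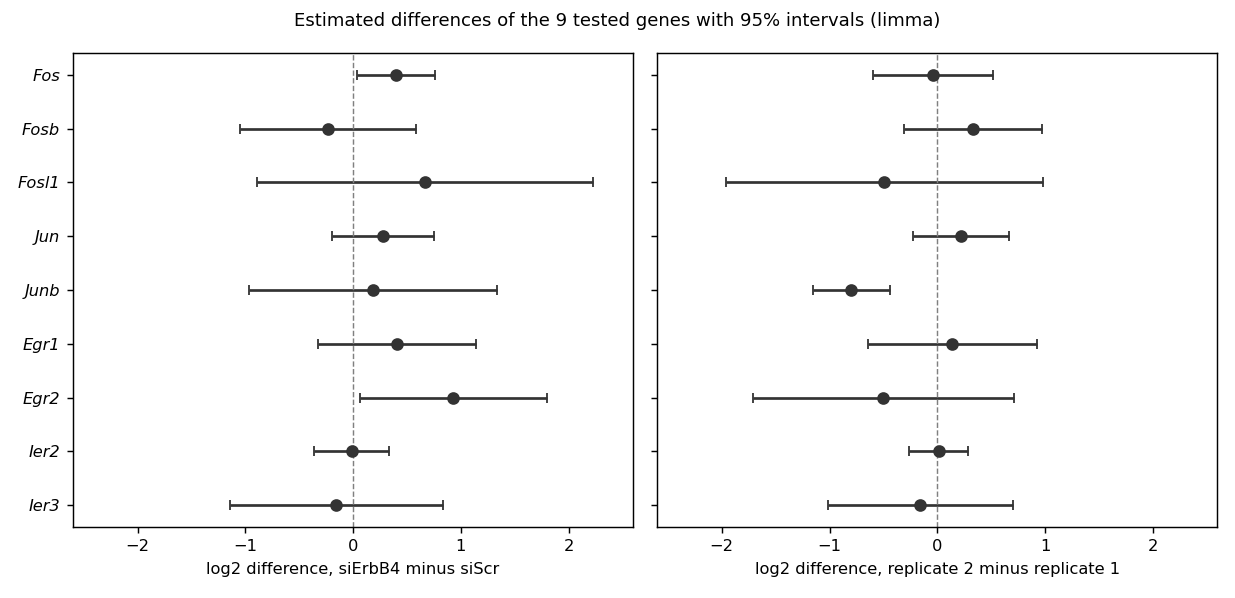
Log2 differences of the 9 tested genes (points) with limma's 95% intervals (bars), for siErbB4 minus siScr on the left and replicate 2 minus replicate 1 on the right. Fos has an interval above 0 on the left without passing the adjusted threshold, as does Egr2, which passed the filter only through siErbB4, and Junb at -0.80 lies below 0 on the right.

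Set within each replicate number, where 1 siErbB4 array meets 1 siScr array, the genes split into those with like and those with unlike differences. Fos gave 0.34 in replicate 1 and 0.46 in replicate 2, Jun 0.36 and 0.20, and Junb 0.22 and 0.15. These 3 of the 8 genes well above background on every array were higher within both numbers, beside 28.1% of all features. In the fit of all 4 arrays, normexp background correction gave 0.28 for Fos, 0.27 for Jun and 0.04 for Junb, against 0.40, 0.28 and 0.18. Egr2 gave 0.63 in replicate 1 and 1.23 in replicate 2, the latter against the siScr array in which it was not well above background. Ier2 was lower by 0.01 within both, beside 33.5% of features. The remaining 4 of the 8 had opposite signs, beside 38.4% of features: Fosb 0.19 and -0.65, Fosl1 -0.33 and 1.66, Egr1 0.86 and -0.04, and Ier3 -0.81 and 0.50. Each is a difference of single arrays and has no test.

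**Figure D4:**
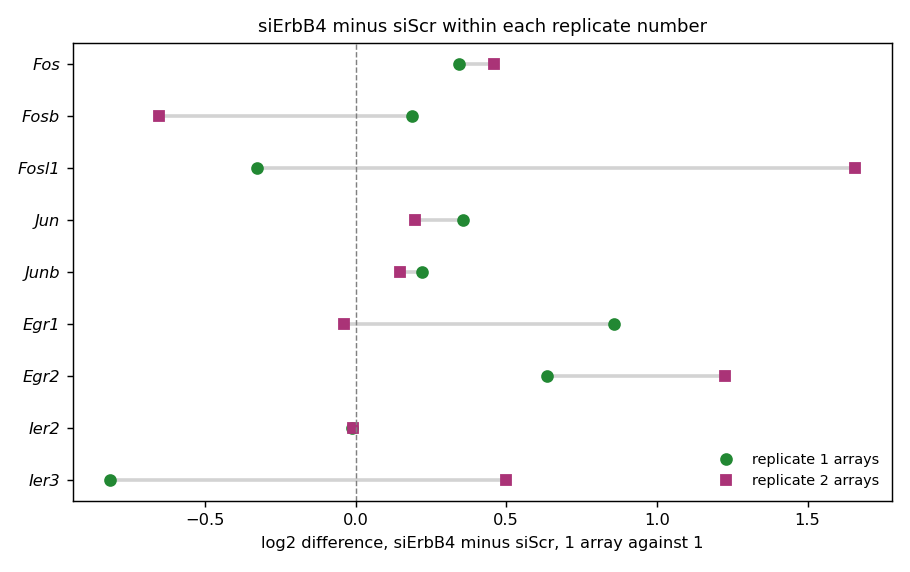
Log2 difference of siErbB4 minus siScr within the replicate 1 arrays (circles) and within the replicate 2 arrays (squares) for the 9 tested genes, joined by a grey line. Fos, Jun and Junb stand right of 0 in both, as does Egr2, which passed the filter only through siErbB4. Fosl1 runs from -0.33 to 1.66 and Ier3 from -0.81 to 0.50.

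Among markers of other cells, the pluripotent cell list moved with the siErbB4 label in summed level. Its 6 genes were all well above background on the 4 arrays, with 5 of 6 differences positive, Nanog at -0.13 and none called. They summed to 22.8 and 24.0 times the array's 75th percentile signal in siScr and to 36.6 and 27.2 in siErbB4. Most of each sum was Dppa5a, at scaled log2 levels of 4.22 and 4.22 in siScr and 4.87 and 4.43 in siErbB4. The median difference of the list was 0.64 within replicate 1 and 0.034 within replicate 2. All 6 fibroblast markers had negative differences, none called, and their sums overlapped, at 38.2 and 8.64 in siScr and 22.0 and 6.58 in siErbB4. Within replicate 1 all 6 were lower in siErbB4 (median -0.80), as were 5 of 6 within replicate 2 (median -0.13). Without siScr replicate 1 all 6 differences were positive, with a median of 0.54. That fit sets siScr replicate 2 alone against both siErbB4 arrays, so it mixes in the difference between the replicate numbers. The differences of all 5 endothelial markers (median -0.50), all 4 tested smooth muscle markers and all 4 tested macrophage markers were negative too, none called. The endothelial list summed to 3.48 and 4.57 in siScr and to 3.37 and 3.52 in siErbB4. The 5 heat shock genes tested, a list for stress in cell handling, summed to 263 and 294 in siScr and to 268 and 280.2 in siErbB4. Hspb1 and Hspa8 make up most of these sums, so they say little of the dim Hspa1a, whose difference was -0.04. The part of these cells in the differences of Fos and Jun was not tested. In such bulk samples fewer cells of a type and less RNA per cell cannot be told apart.

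The replicate numbers were compared next, as the replicate 2 arrays against the replicate 1 arrays over both groups. The labels do not say whether the numbers differ in incubation time, in differentiation or in neither, so these cannot be told apart here. Junb fell, from a mean scaled log2 level of -3.23 in the replicate 1 arrays to -4.03 in the replicate 2 arrays, a 1.74-fold lower level. None of the other 8 tested genes passed. By limma with Benjamini-Hochberg adjustment, 1085 of 20726 features (5.23%) were called, 600 higher (2.89%) and 485 lower (2.34%), so 1 call among 9 genes is near the share over all features. Junb was also the only 1 of the 9 with an unadjusted limma p under 0.05, beside 23% of all features.

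For Junb, the difference was -0.80 (SE 0.14, 95% interval -1.15 to -0.44) and its limma adjusted p was 0.0490, just inside the threshold. It was -0.76 within siScr and -0.84 within siErbB4. The call held under 4 of 11 alternatives, and the adjusted limma p ran from 0.0338 to 0.243 over them. It was lost with quantile normalization (-0.78), with normexp background correction (-0.33), with no filter on dim probes, and without any 1 of the 4 arrays (-0.91 to -0.69). The raw spot brightness of Junb was 139.5 in both replicate 1 arrays and at most 106 in the replicate 2 arrays, over local backgrounds of 26.0 to 31.0.

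The remaining genes differed between the numbers by less than their array error allows to call. The differences were -0.04 for Fos (SE 0.21), 0.33 for Fosb (SE 0.24), -0.49 for Fosl1 (SE 0.56) and 0.22 for Jun (SE 0.17). Those of the EGR genes were 0.14 for Egr1 (SE 0.30) and -0.50 for Egr2 (SE 0.46), and those of the IER genes 0.01 for Ier2 (SE 0.10) and -0.16 for Ier3 (SE 0.33). The numbers did not overlap at 2 of 9 genes, Junb (lower) and, by 0.01, Ier2 (higher), beside 55.5% of all features, 26% lower and 29.4% higher. Junb and Egr2 (not well above background in siScr replicate 2) were lower in replicate 2 within both groups, beside 33% of features, and Jun and Ier2 were higher within both, beside 37.3%. At the other 5 genes the groups gave opposite signs, beside 29.7% of features. The median over the 9 genes was -0.04, and 0.02 over all features. Without siScr replicate 2 it was 0.11, with 8 positive and 1 negative, and without siErbB4 replicate 2 it was -0.27.

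Several marker lists moved with the replicate number. All 6 fibroblast markers were lower in replicate 2, with a median log2 difference of -1.62 and 2 called, and all were well above background on every array. They summed to 38.2 (siScr) and 22.0 (siErbB4) in the replicate 1 arrays and to 8.64 and 6.58 in the replicate 2 arrays, in units of the array's 75th percentile signal. All 4 tested smooth muscle markers were lower too, the list summing to 547 and 431 against 250.1 and 242. Acta2 and Tagln, which make up most of these sums, were called, at -1.22 and -1.04. Cnn1 gave -0.10 and Des -0.13 without being called, and both were higher in replicate 2 within siErbB4. In the macrophage list the lysozyme genes Lyz1 and Lyz2 were called higher in replicate 2, by 3.42 and 3.24, while Fcer1g gave -1.74 without being called and Csf1r 0.04, and Cd68 and Ptprc were not tested. Of the 7 cardiomyocyte markers 6 were higher, with a median of 0.35 and Ryr2 called, and the list summed to 838 and 822 against 1009 and 937. All 4 tested endoderm markers were higher, with a median of 0.59 and Afp called, the list summing to 6.42 and 6.69 against 9.75 and 9.59, with Apoa1 not above background on any array. Of 5 endothelial markers 4 were lower (median -0.46) and Kdr higher, none called. That list summed to 3.48 and 3.37 against 4.57 and 3.52. Of 4 tested neural markers 3 were lower (median -0.15), none called, though 3 were higher within siErbB4. Tubb3 gave -1.33, and the neural list summed to 19.6 and 13.3 against 10.6 and 8.62. Slide position also followed the number, with replicate 1 arrays at positions 3 and 4 and replicate 2 arrays at positions 1 and 2. The part of any of these in the Junb difference was not tested.

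The wider immediate early response was read from 4 lists of 50 genes, of which 48 were tested. In the siErbB4 comparison none of them was called. Of 20 other immediate early genes tested 17 had a positive difference, with a median of 0.11, beside 47.2% of all features above 0. Within replicate 1 the positive count was 13 (median 0.12), and within replicate 2 it was 16 (median 0.14). The positive count was 11 without siScr replicate 2 (median 0.056) or without siErbB4 replicate 1 (median 0.038). The median was 0.34 without siScr replicate 1 and 0.31 without siErbB4 replicate 2. Fits with an array left out hold groups unequal in replicate number. The lowest p in that list belonged to Nr4a1, the orphan nuclear receptor NUR77, at 0.63 (SE 0.19), with scaled log2 levels of 1.48 and 1.39 in siScr and 2.26 and 1.85 in siErbB4. Next came Myc, the growth regulator, at 0.39 (SE 0.15), with levels of -2.25 and -2.27 against -1.77 and -1.98. Neither gene's groups overlapped.

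The AP-1 partners and relatives had a median of 0.07 over 10 genes between the groups, which turned to -0.17 without siScr replicate 2 (3 positive, 7 negative) and was 0.24 without siScr replicate 1 and 0.0037 without siErbB4 replicate 2. Mafk, a small MAF protein gene, gave -0.31 (SE 0.15). Atf2, a JUN dimer partner, gave 0.21 (SE 0.14), and 0.083 (SE 0.17) with the mean of its probes. Upstream kinases and factors had a median of -0.04 over 16 genes, with 7 positive and 9 negative, and of -0.10 without siScr replicate 1 and -0.0078 without siErbB4 replicate 1. The lowest p belonged to Map2k2, which encodes the ERK kinase MEK2, at -0.29 (SE 0.14), and Mapk3, which encodes ERK1, at -0.31 (SE 0.19). For the EGR co-repressors, Nab2 gave 0.16 (SE 0.20) and Nab1 -0.02 (SE 0.14). The limma adjusted p of each of these genes was 1.00.

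Between the replicate numbers, 3 of the 48 listed genes were called and all 3 were lower in replicate 2, beside the 5.23% of all features called. Ptgs2, which encodes the inducible cyclooxygenase, fell by 1.17 on the log2 scale (SE 0.12, limma adjusted p 0.0243). Its scaled log2 levels were 1.105 and 1.01 in the replicate 1 arrays and -0.20 and -0.03 in the replicate 2 arrays. Fosl2, which encodes the FOS relative FRA-2, fell by 1.03 (SE 0.15, limma adjusted p 0.0358), from 1.53 and 1.50 to 0.32 and 0.65. The polo-like kinase gene Plk3 fell by 0.77 (SE 0.11, limma adjusted p 0.0345), from -1.37 and -1.46 to -2.18 and -2.19. In each of the 3 genes both replicate 2 arrays lay below both replicate 1 arrays. With no filter on dim probes, and without siScr replicate 1, siScr replicate 2 or siErbB4 replicate 2, all 3 calls were lost. That of Fosl2 was also lost without siErbB4 replicate 1 and, at -0.76, with the mean of its probes.

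As a list, the other immediate early genes were mostly lower in replicate 2, 17 of 20 with a median of -0.26, against a median of 0.02 over all features. The median was -0.51 without siScr replicate 1, -0.39 without siErbB4 replicate 2 and -0.15 without siScr replicate 2, and 13 of 20 were lower without siErbB4 replicate 1. In siScr 16 of 20 were lower and in siErbB4 17 of 20. Of the 9 tested genes of the set 5 were lower and 4 higher, beside 53% of all features above 0. The AP-1 partners had 5 lower and 5 higher, with Mafg second by p at -0.41 (SE 0.11). The upstream list had 8 lower and 8 higher, with the ETS factor gene Elk3 at -0.79 (SE 0.14, limma adjusted p 0.0505) and the MEK1 gene Map2k1 at 0.51 (SE 0.16). Elk3 was called under 4 of 11 alternatives, which were normexp, the filter for all 4 arrays, the replicate block and leaving out siErbB4 replicate 1. Nab1 gave 0.01 (SE 0.12) and Nab2 0.15 (SE 0.18). The fibroblast, smooth muscle, cardiomyocyte, endoderm, endothelial and neural sums given for Junb moved with these differences as well, and their part was not tested.

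**Figure D5:**
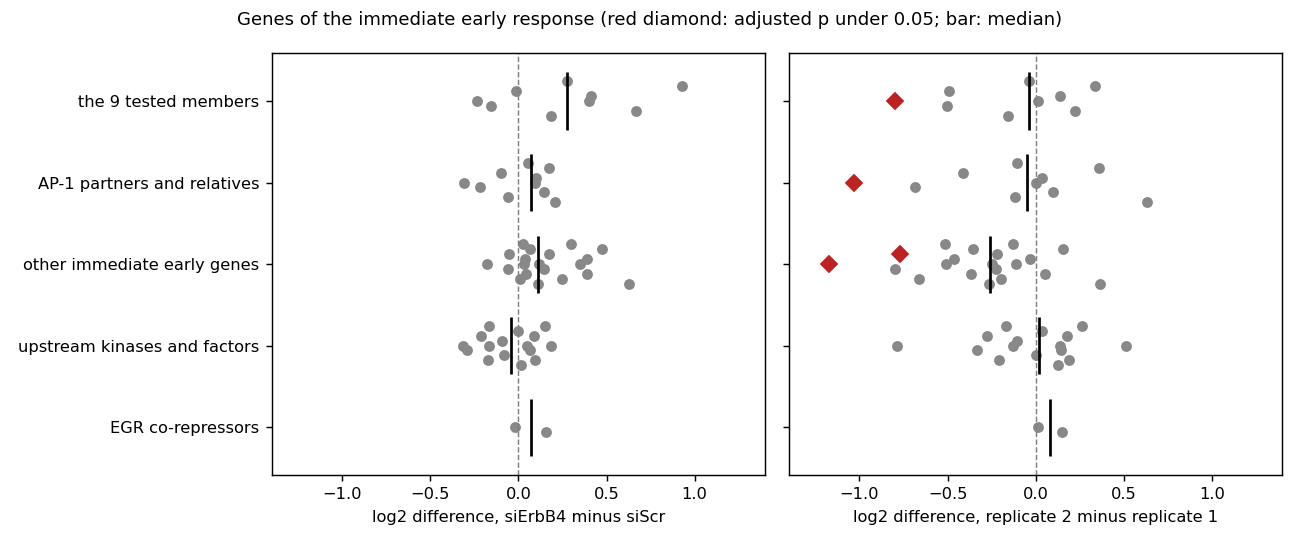
Log2 differences of the 9 tested members and of the tested genes of 4 lists, for siErbB4 minus siScr on the left and replicate 2 minus replicate 1 on the right; black bars are medians and red diamonds are genes with an adjusted p under 0.05. No gene is called on the left, and on the right Junb, Fosl2, Ptgs2 and Plk3 are called, all below 0. The members' bar on the left, at 0.28, includes Egr2, which passed the filter only through siErbB4. Over the 8 members well above background on every array the median was 0.23.

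The pattern of Fos over the 4 arrays was matched against 14984 named genes outside the set by the root mean square distance of log2 levels centred per gene. The nearest were Socs4 at 0.032, Acot6 at 0.034, Gm3238 at 0.040, Zbtb6 at 0.041 and Fastkd2 at 0.044, with siErbB4 minus siScr differences of 0.32 to 0.42. None of these is an immediate early gene of the lists. Jun was the member nearest to Fos, at 0.16, with 9.14% of the named genes closer, and Fosl1 was the farthest, at 0.53, with 91.5% closer. Over 4 arrays such distances are a description of these samples.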

How the data were processed

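Total RNA of 4 samples was labelled with Cy3 from 200 ng, and the submitters' processing notes name Agilent Feature Extraction, version 10.7.1.1. Per the file headers, the deposited processed intensity is background-subtracted and detrended, not scaled between arrays, and the array's annotation names mm9, so no probe positions are given. Other flags were used as deposited. The authors' deposited log2 table equals the log2 signal minus the array's 75th percentile to within 0.00328, with column medians of -3.81, -3.83, -3.84 and -3.86. Control spots (1377 of 44397) and outlier spots were left out, spots of a probe were averaged, and 27508 of 39429 probes were named by unversioned accession (GRCm38.p6). Of several probes of a gene the brightest was kept, which left 20726 features. limma 3.58.1 (R 4.3.3; lmFit, eBayes) compared groups and, separately, replicate numbers, with 2 residual degrees of freedom each, and was tested on simulated data. The number of arrays limits the precision. Alternatives were quantile normalization, normexp (offset 50), 2 other filters, probe means, the deposited table, the replicate block and each array left out. Named are all 10 members and, per list and comparison, the 2 genes of lowest p plus any called, with the 5 genes nearest to Fos. The members and lists were chosen with earlier results of these data known.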

Additional observations from a re-analysis of the deposited data

Results flagged for a closer look

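At 5 genes the replicate 2 array lay on opposite sides of the replicate 1 array in siScr and in siErbB4. As replicate 2 minus replicate 1 on the log2 scale, Fos gave -0.10 in siScr and 0.018 in siErbB4, Fosb 0.75 and -0.085, Fosl1 -1.48 and 0.50, Egr1 0.59 and -0.31, and Ier3 -0.81 and 0.50. Each value is a difference of 1 array against 1, so the difference between the groups was not tested. Opposite signs were found at 29.7% of all features. Groups of 2 arrays are too small for a check on single outlying arrays.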

How the results depend on the processing

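No feature was called between siErbB4 and siScr under any of the 11 alternatives (366 with an unadjusted limma p under 0.05, and 177 to 1547 over the alternatives). The differences of Fos, Jun and Egr1 stayed above 0 in each fit. That of Egr2 did so in each fit that held it. Egr2 passed the filter only through siErbB4, where it read higher, so its sign is not counted with theirs. Between the replicate numbers the 1085 calls became 1873 with normexp, 0 with no filter on dim probes, and 0 to 1540 with an array left out. Slide was not run as a block, since all arrays lay on 1 slide. The replicate block left 0 calls between the groups, with an adjusted limma p of 0.641 to 0.976 for the members, and gave 1518 calls between the numbers; same-numbered arrays deviated from their group means with r = 0.679 across features, which 2 pairs cannot settle as a pairing. It changed no call of a member.

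With 1 array left out, differences between the groups that changed sign ran from -0.61 to 0.14 for Fosb, -0.076 to 1.41 for Fosl1, -0.23 to 0.60 for Junb, -0.56 to 0.25 for Ier3, -0.091 to 0.052 for Nab1 and -0.059 to 0.37 for Nab2. Between the replicate numbers they ran from -0.27 to 0.19 for Fos, -1.32 to 0.34 for Fosl1, -0.29 to 0.57 for Egr1, -1.11 to 0.11 for Egr2, -0.56 to 0.25 for Ier3, -0.063 to 0.087 for Nab1 and -0.075 to 0.37 for Nab2. Among the other settings, Ier2 was 0.012 between the groups with quantile normalization. With normexp, the difference between the numbers was 0.015 for Fos, 0.067 for Egr2, -0.056 for Ier2 and -0.033 for Nab1. The cause of these changes was not tested. Egr2 has no value under the filter for all 4 arrays, since 1 array did not measure it. With an array left out, the lone array of an arm is assumed to vary like the other arm. The groups are then also unequal in replicate number, so the difference between the numbers enters the difference between the groups. For Junb, which was 0.80 lower in replicate 2, siErbB4 was higher within both numbers, by 0.22 and 0.15.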
